A study of Rattus norvegicus with 27 samples.

Results

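*Egr2*, *Egr1*, *Egr3*, *Pou3f1*, *Pou3f2*, *Nab1*, *Nab2* and *Yy1* are 8 genes that encode transcription factors and corepressors around the switch to myelination in Schwann cells, the glia of peripheral nerves. They were chosen by gene name from the 17315 genes of a cell mRNA table, and all 8 were present and passed the filter on low counts. Primary rat Schwann cells bought from a supplier and used at passages 3 to 5 were sampled at 3 stages, with 3 libraries labelled as biological replicates at each. Undifferentiated cells were kept without dibutyryl cyclic AMP (dbcAMP), a cell-permeable cyclic AMP analogue, and the labels do not state their medium further. Differentiated cells, which the labels call myelinating, received 1 mM dbcAMP for 72 h in DMEM with 1% serum. Dedifferentiated cells, which the study's design calls repair cells, received the same treatment and then spent 72 h without dbcAMP in a complete medium with 10% serum, neuregulin and forskolin, an activator of adenylyl cyclase. Stage and medium changed together, so their parts in a difference cannot be told apart. Below, under dbcAMP stands for differentiated against undifferentiated cells, and on withdrawal for dedifferentiated against differentiated cells. Both include the change of medium and do not name an effect of dbcAMP alone.

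*Egr2* (Krox20) is the zinc finger factor required for Schwann cells to start and keep myelin gene expression. *Pou3f1* (Oct6) and *Pou3f2* (Brn2) are POU homeodomain factors that act before it, in promyelinating cells, and *Pou3f1* is long known as a gene induced by cyclic AMP in cultured Schwann cells. *Egr1* and *Egr3* are close relatives of *Egr2* that most cells induce within minutes to hours of a growth signal. *Nab1* and *Nab2* encode corepressors that bind Egr proteins and bring in the NuRD chromatin complex, and mice that lack both fail to myelinate normally. *Yy1* is a widely expressed zinc finger factor that is needed for *Egr2* induction in Schwann cells.

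RefSeq promoter sequences of assembly GRCr8 were matched by symbol for 6 of the 8 genes. The stretches below are shown because they carry letters that cyclic AMP and serum signals, or Egr proteins themselves, are known to use. In *Egr2* and *Egr1*, capitals mark CGTCA, the core of a cyclic AMP response element, and the CArG box, the element of serum response factor. In *Nab1* they mark the Egr motif GCGNGGGCG, and in *Yy1* the full cyclic AMP response element TGACGTCA. The *Nab1* stretch also holds CGTCA, which begins 184 bases before the start and is left in lower case. All motifs were searched on both strands in the 250 bases before the annotated start. CGTCA lies inside TGACGTCA, so these motifs overlap. The stretches lie upstream of the annotated start used by the table, and that of *Egr2* falls inside the RefSeq span of the gene, which reaches further upstream through another transcript model.
Egr2, chr20:21054442-21054541, minus strand: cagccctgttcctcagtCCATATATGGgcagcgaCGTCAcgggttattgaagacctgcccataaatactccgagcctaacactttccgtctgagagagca
Egr1, chr18:26736928-26737077, plus strand: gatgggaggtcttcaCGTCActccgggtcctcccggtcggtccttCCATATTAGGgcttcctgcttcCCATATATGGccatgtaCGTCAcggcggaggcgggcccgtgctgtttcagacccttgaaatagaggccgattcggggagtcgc
Nab1, chr9:56545432-56545541, plus strand: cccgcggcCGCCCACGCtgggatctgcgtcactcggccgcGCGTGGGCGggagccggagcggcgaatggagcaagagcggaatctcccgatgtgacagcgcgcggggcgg
Yy1, chr6:133471365-133471434, plus strand: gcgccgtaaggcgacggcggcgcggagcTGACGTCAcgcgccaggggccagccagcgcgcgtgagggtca

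The *Egr2* and *Egr1* promoters shared an arrangement. Each held a CArG box of the same letters that began 83 bases before the start, followed by CGTCA that began 66 bases before it. *Egr1* held a second pair further upstream, with a CArG box at 105 and CGTCA at 135 bases before the start. Of 33469 RefSeq promoters of the same length, 1.5% held a CArG box, 18.2% held CGTCA and 1.59% held TGACGTCA. The Egr motif was present in 4.29% of them, at 3 places in *Nab1*, of which the stretch above shows those at 202 and 170 bases before the start, and at 1 place in *Pou3f2*. *Nab2* held none of these letters in its window. A match is a description of letters and not of binding.

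Libraries held 10058735 to 16212278 estimated counts, so 3 counts correspond to 0.185 to 0.298 CPM, the estimated count scaled by the library total. Levels are given in CPM, with mean ± SD over n = 3, and they are compared within a gene only, since the counts are not scaled by transcript length. Changes are log2 changes from edgeR's quasi-likelihood test over 10372 genes, given with their standard error (SE), and a gene counts as called where the p adjusted by Benjamini-Hochberg over all genes is under 0.05. Of 8 fixed Schwann cell markers, all were detected at each stage, with summed levels of 8413 to 9568 CPM in undifferentiated, 8529 to 11127 CPM in differentiated and 18678 to 21561 CPM in dedifferentiated libraries. *Sox10*, the glial factor that acts with *Egr2* on myelin genes, lay between 964 and 1539 CPM in all 9 libraries. It was called lower under dbcAMP (log2 change -0.42, edgeR adjusted p = 0.00665) and higher on withdrawal (0.49, edgeR adjusted p = 0.00403). Between dedifferentiated and undifferentiated cells *Sox10* was not called. The macrophage, endothelial, mural and neuronal marker lists each summed to at most 13.7 CPM in any library. *Aif1*, *C1qa*, *Cdh5* and *Rgs5* were at 0 throughout. Of the tested macrophage, endothelial and mural markers, *Cd68* and *Tek* were called higher under dbcAMP (log2 changes 2.13 and 2.37) and *Acta2* lower (-4.04). *Csf1r*, at 0 in undifferentiated libraries and under 1 CPM in the others, was also called higher, and *Myh11* was not called. On withdrawal *Cd68* was called lower and *Acta2* higher, while *Csf1r*, *Tek* and *Myh11* were not called. Summed macrophage markers were 0.322 to 1.64 CPM in undifferentiated, 3.64 to 5.09 CPM in differentiated and 1.88 to 3.65 CPM in dedifferentiated libraries. Endothelial ones were 1.21 to 3.08, 5.67 to 8.26 and 3.98 to 7.88 CPM in the same order. Summed mural markers were 6.22 to 11.7 CPM in undifferentiated, 4.2 to 4.78 CPM in differentiated and 8.14 to 13.7 CPM in dedifferentiated libraries. The fibroblast markers *Lum* (0 counts in every library), *Dcn*, *Dpt* and *Pdgfra* stayed under 1 CPM, while *Col1a1* and *Col1a2*, which Schwann cells also express, made up nearly all of that list's sum. The sum was 24363 to 29064 CPM in undifferentiated, 11924 to 15586 CPM in differentiated and 15935 to 19352 CPM in dedifferentiated libraries, and both collagen genes were called lower under dbcAMP (log2 changes -1.42 and -0.37). The part of these marker differences in the results was not tested. In such bulk libraries, fewer cells that express a gene and less RNA per cell cannot be told apart.

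**Figure D1:**
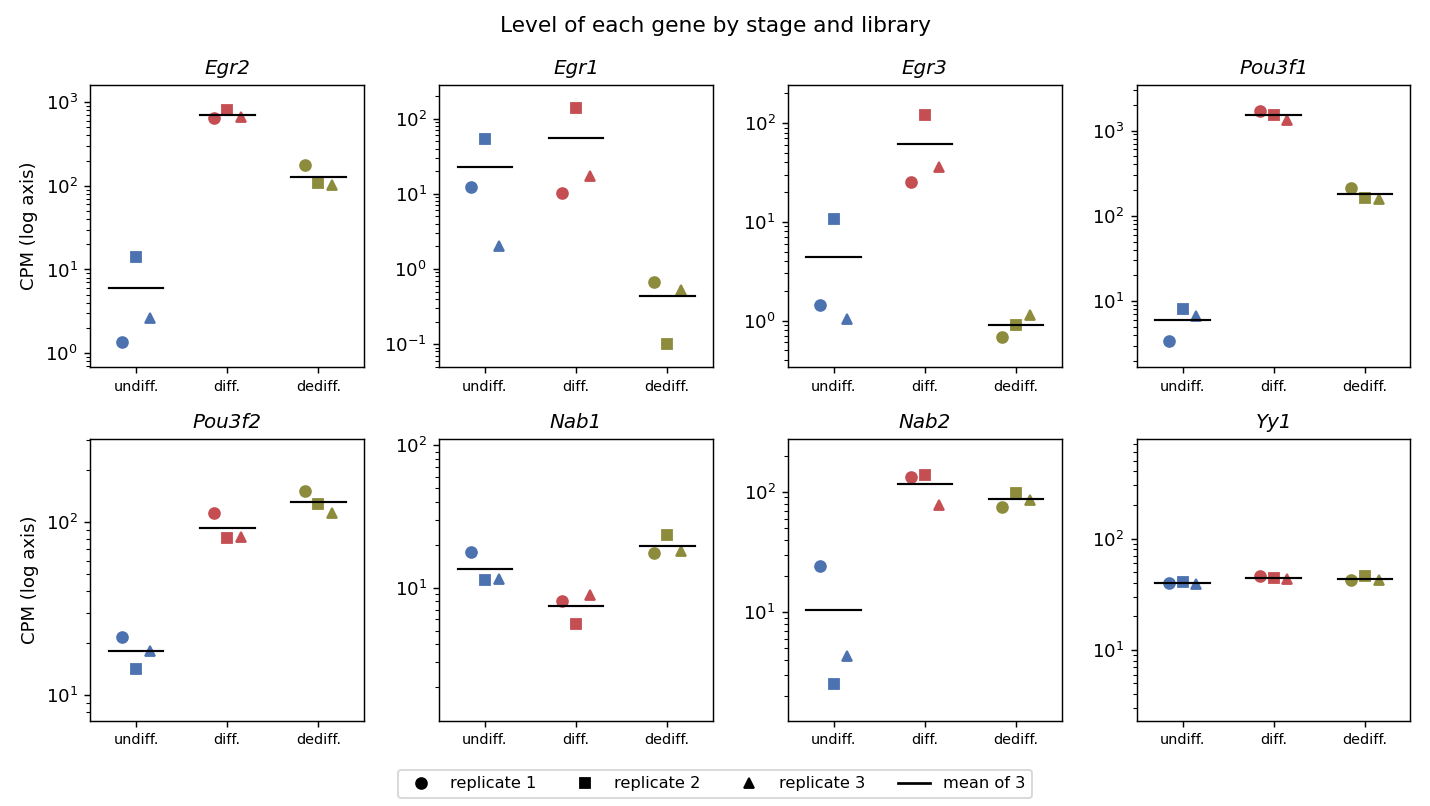
Level of each of the 8 genes in CPM on a log axis, by stage, with 1 symbol per library (circle, square and triangle for replicates 1, 2 and 3) and a line at the mean of 3. *Egr2* and *Pou3f1* are lowest in undifferentiated and highest in differentiated cells without overlap. *Egr1* and *Egr3* spread widely at these stages and *Egr2* in undifferentiated cells, and *Yy1* stays between 39.5 and 46.5 CPM.

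The first comparison set differentiated cells against undifferentiated ones. *Egr2*, *Egr3*, *Pou3f1*, *Pou3f2* and *Nab2* rose, *Nab1* fell, and *Egr1* and *Yy1* were not called. Thus 6 of 8 members were called, where 59.6% of all genes tested were, 5 of them higher (31.7% of all genes) and 1 lower (27.9%). Their median log2 change was 2.86, beside 0.05 for all genes tested.

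*Pou3f1* measured 3.38, 8.08 and 6.67 CPM in the undifferentiated replicates 1, 2 and 3. In the differentiated replicates it measured 1712, 1542 and 1325 CPM. Every differentiated library was thus far above every undifferentiated one. The log2 change was 7.93 (SE 0.28; edgeR adjusted p = 6.35e-09), a 244-fold rise.

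*Egr2* followed the same course with more spread at the start. Its undifferentiated libraries held 1.37, 14.0 and 2.62 CPM, a 10.2-fold range set by replicate 2. Its differentiated libraries held 647, 800.3 and 663 CPM, which lie close together and do not overlap with the former. The log2 change was 6.90 (SE 0.61; edgeR adjusted p = 4.09e-06), a 119-fold rise. Without undifferentiated replicate 2 it was 8.33, or 323-fold.

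*Pou3f2* rose far less than its paralog. It measured 21.7, 14.2 and 18.0 CPM in undifferentiated and 113, 81.0 and 82.4 CPM in differentiated cells, again without overlap. The log2 change was 2.29 (SE 0.19; edgeR adjusted p = 2.87e-06), a 4.90-fold rise.

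The paralogs of *Egr2* were measured less evenly. *Egr3* held 1.45, 10.6 and 1.05 CPM in the undifferentiated and 25.4, 121.8 and 36.1 CPM in the differentiated replicates. Replicate 2 was the highest at both stages, and the stages did not overlap. The log2 change was 3.83 (SE 0.79; edgeR adjusted p = 0.00163), with 2.83 without differentiated replicate 2 and 5.52 without undifferentiated replicate 2. *Egr1* held 12.5, 53.4 and 2.03 CPM in the undifferentiated and 10.2, 140.2 and 17.1 CPM in the differentiated replicates. Here too replicate 2 was the highest at both stages, and the stages overlapped. The log2 change of *Egr1* was 1.25 (SE 1.03; edgeR adjusted p = 0.315), and it turned to -0.77 without differentiated replicate 2. Without undifferentiated replicate 2 it was 2.85 (edgeR adjusted p = 0.0566), which was not called either.

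The corepressor genes went in opposite directions. *Nab2* measured 24.2, 2.5 and 4.32 CPM in undifferentiated and 134.5, 139 and 77.8 CPM in differentiated cells. The stages did not overlap, although undifferentiated replicate 1 stood well above the other libraries of its stage. The log2 change was 3.42 (SE 0.60; edgeR adjusted p = 0.000592), a 10.7-fold rise, and 5.01 without that library. *Nab1* measured 17.7, 11.3 and 11.6 CPM in undifferentiated and 8.03, 5.56 and 8.82 CPM in differentiated cells, without overlap. Its log2 change was -0.92 (SE 0.24; edgeR adjusted p = 0.00666).

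*Yy1* moved little by comparison. Its undifferentiated libraries held 40.2, 41 and 39.5 CPM and its differentiated libraries 46.5, 44.1 and 43.1 CPM. The libraries did not overlap in CPM, as was the case for 66.3% of all genes tested, and for 7 of the 8 members. With TMM scaling the log2 change was 0.09 (SE 0.08; edgeR adjusted p = 0.393), which was not called.

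**Figure D2:**
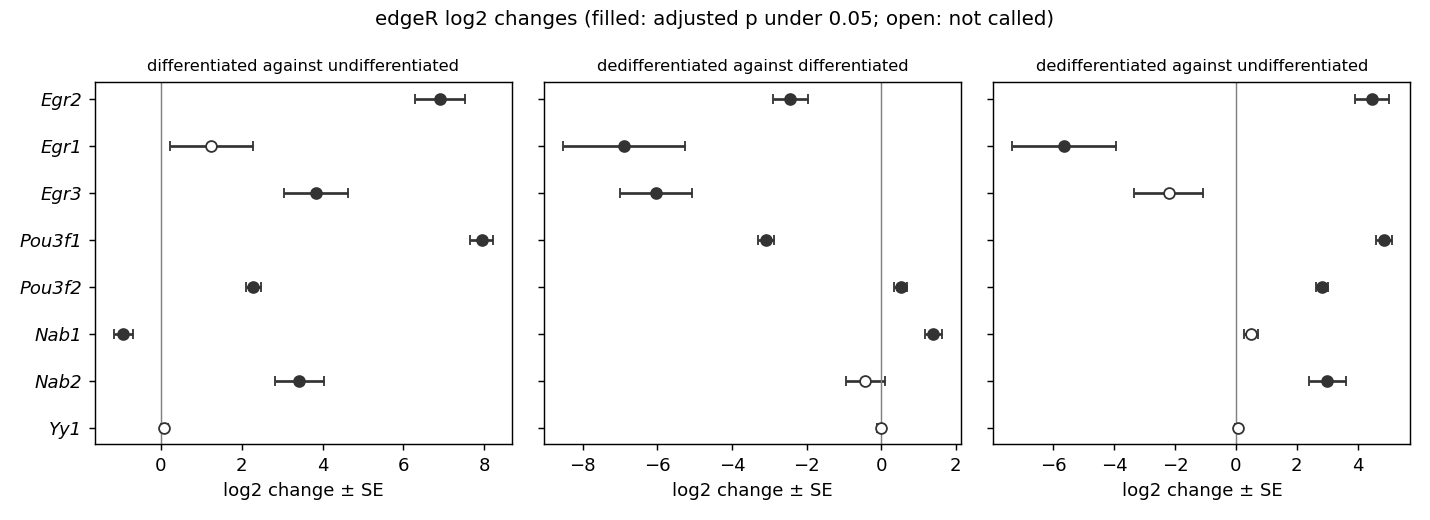
Log2 change with SE of the 8 genes (x axis) in each of the 3 comparisons (panels), filled where the adjusted p was under 0.05. *Egr2*, *Pou3f1*, *Pou3f2* and *Nab2* lie to the right of 0 in both comparisons with undifferentiated cells, and *Egr1* and *Egr3* have their largest changes to the left on withdrawal.

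Dedifferentiated and differentiated cells were then compared, to measure what followed the withdrawal of dbcAMP. *Egr2*, *Egr1*, *Egr3* and *Pou3f1* fell, *Nab1* and *Pou3f2* rose, and *Nab2* and *Yy1* were not called. In this comparison 6 of 8 members were called, where 46.4% of all genes were, with 4 lower (23.2% of all genes) and 2 higher (23.2%). The median log2 change of the members was -1.43, beside -0.01 for all genes. This comparison shares the differentiated libraries with the first one, so the directions of the 2 are not independent.

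*Egr1* and *Egr3* were nearly lost. *Egr1* was represented by 8, 1 and 7 counts in the dedifferentiated replicates, or 0.678, 0.0994 and 0.527 CPM. Every such library lay below every library of the other stages. The log2 change of *Egr1* from differentiated cells was -6.89 (SE 1.64; edgeR adjusted p = 0.00602), and -4.88 without differentiated replicate 2. Over pooled counts, differentiated cells held 115 times the *Egr1* level of dedifferentiated cells, with an exact 95% interval of 70.5 to 201 that covers counting error only.

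*Egr3* held 0.678, 0.895 and 1.13 CPM after withdrawal, from 8, 9 and 15 counts. Its log2 change was -6.04 (SE 0.96; edgeR adjusted p = 0.000519), and -5.06 without differentiated replicate 2. The pooled *Egr3* level was 64.5 times higher in differentiated cells, with an exact 95% interval of 45.5 to 94.4. This interval too covers counting error only, not the spread between libraries. Differentiated replicate 2 gave 1578 of the 2508 pooled differentiated counts, and without it the fitted fold was 33.4. What was left of the differentiated mean was 0.779% for *Egr1* and 1.47% for *Egr3*.

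*Egr2* and *Pou3f1* fell less far. *Egr2* measured 175.7, 107.7 and 103 CPM in the dedifferentiated replicates, which is 18.3% of its differentiated mean. Its log2 change was -2.43 (SE 0.47; edgeR adjusted p = 0.00185). *Pou3f1* measured 214, 164 and 159 CPM, or 11.7% of its differentiated mean. The log2 change of *Pou3f1* was -3.08 (SE 0.22; edgeR adjusted p = 1.95e-06). For both genes the dedifferentiated libraries lay between those of the other stages and touched neither.

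*Pou3f2* did not share the fall of *Pou3f1*. It measured 152, 127 and 113.7 CPM after withdrawal, just above the highest differentiated library. The log2 change was 0.52 (SE 0.18; edgeR adjusted p = 0.0344). This call was lost within the first sequencing project (replicates 1 and 2) and when any of 4 libraries was removed. These fits were those without differentiated replicate 2 or 3 or without dedifferentiated replicate 1 or 2, with log2 changes of 0.43, 0.44, 0.41 and 0.55.

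The corepressor genes differed again, with *Nab1* called higher and *Nab2* not called. *Nab1* measured 17.5, 23.4 and 18.1 CPM without overlap and rose by 1.40 on the log2 scale (SE 0.24; edgeR adjusted p = 0.000773). *Nab2* measured 75.6, 98.6 and 86.5 CPM, which overlapped with the differentiated libraries (log2 change -0.42, SE 0.52; edgeR adjusted p = 0.529). *Yy1* measured 42.1, 46.3 and 42.7 CPM and also overlapped (log2 change -0.02, SE 0.08; edgeR adjusted p = 0.894). Libraries of these stages did not overlap for 6 of 8 members and for 58.5% of all genes.

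Against undifferentiated cells, dedifferentiated cells had 4 members at a higher level and 1 at a lower one. These 5 of 8 compare with 29.4% of all genes called, 16.1% higher and 13.3% lower. The higher ones were *Egr2*, *Pou3f1*, *Pou3f2* and *Nab2*, and the lower one was *Egr1*. The median log2 change was 1.65 for the members and 0.02 for all genes.

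*Pou3f1* was 28.9-fold higher, at 4.85 on the log2 scale (SE 0.25; edgeR adjusted p = 8.52e-07). *Egr2* was higher by 4.46 on the log2 scale (SE 0.57; edgeR adjusted p = 0.00023), or 22.1-fold, and by 5.91 without undifferentiated replicate 2. *Pou3f2* was higher by 2.81 on the log2 scale (SE 0.20; edgeR adjusted p = 4.26e-06), or 7.02-fold. For each of these genes, every dedifferentiated library lay above every undifferentiated one.

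*Nab2* was higher by 3.00 on the log2 scale (SE 0.60; edgeR adjusted p = 0.00364) and by 4.59 without undifferentiated replicate 1. Within the first sequencing project its value was 2.61 and was not called (edgeR adjusted p = 0.0584). *Nab1* changed by 0.48 (SE 0.23; edgeR adjusted p = 0.141) and overlapped between the stages. Without undifferentiated replicate 1, the higher library of *Nab1* at that stage, it was called (log2 change 0.75, edgeR adjusted p = 0.0254).

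*Egr1* was lower than in undifferentiated cells, at -5.63 on the log2 scale (SE 1.70; edgeR adjusted p = 0.0298). The pooled counts gave a ratio of 42.7, with an exact 95% interval of 26.1 to 75.2 for counting error. The call of *Egr1* was lost without undifferentiated replicate 2 (log2 change -4.03), without dedifferentiated replicate 1, 2 or 3 (-6.06, -5.27 and -5.77), and within the first sequencing project (-6.33). *Egr3* was not called (log2 change -2.20, SE 1.12; edgeR adjusted p = 0.168), and its value was -0.51 without undifferentiated replicate 2. *Yy1* was not called (log2 change 0.07, SE 0.08; edgeR adjusted p = 0.566). Libraries did not overlap for 6 of 8 members and for 43.9% of all genes.

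The order of levels therefore differed among close relatives. For *Egr2* and *Pou3f1* it was differentiated, dedifferentiated, undifferentiated, with each neighbour called against the next. *Pou3f2* had its highest mean after withdrawal, 131 ± 19.7 CPM against 92.1 ± 18.0 in differentiated cells. *Nab1* was lowest in differentiated cells and did not differ beyond its spread between the other stages. *Nab2* was low in undifferentiated cells and did not differ beyond its spread between the others. *Egr1* was lowest after withdrawal, with undifferentiated and differentiated cells not told apart, and *Egr3* was highest in differentiated cells, with the other stages not called against each other in this fit.

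Ratios of related genes within a library were used to test whether relatives moved unequally. Where a gene lies near or below the 0.5 CPM added to it, as *Egr1* and *Egr3* do after withdrawal, the added amount sets much of the ratio. The calls of the 4 pairs below also held with 0.1 or 1 CPM added. The log2 ratio of *Pou3f1* to *Pou3f2*, with 0.5 CPM added to each, averaged -1.55 ± 0.88 over the undifferentiated libraries (SD, n = 3). It averaged 4.05 ± 0.17 over the differentiated and 0.45 ± 0.07 over the dedifferentiated ones. It differed among stages by an exact permutation test (p = 0.00357, the smallest that 280 assignments allow; adjusted p = 0.00476 over 4 pairs). That ratio was the tightest of the 4 after withdrawal, when all 3 libraries lay between 0.37 and 0.49.

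The log2 ratio of *Nab2* to *Nab1* was -0.96 ± 1.25, 3.86 ± 0.74 and 2.12 ± 0.09 at the stages in the same order (exact permutation p = 0.00357, adjusted p = 0.00476). The balance of the corepressor transcripts thus moved towards *Nab2* under dbcAMP and remained above its undifferentiated values afterwards. For *Egr2* to *Egr1* the log2 ratio was -1.46 ± 1.59, 4.56 ± 1.81 and 7.12 ± 0.43 (exact permutation p = 0.00357, adjusted p = 0.00476). Here the ratio was highest after withdrawal, where *Egr1* was nearly absent. For *Egr3* to *Egr1* it was -1.91 ± 1.06, 0.71 ± 0.80 and 0.63 ± 0.61 (exact permutation p = 0.0321, adjusted p = 0.0321), and this call was lost in 6 of 9 tests that left 1 library out, all but those without undifferentiated replicate 2 or 3 or differentiated replicate 2.

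**Figure D3:**
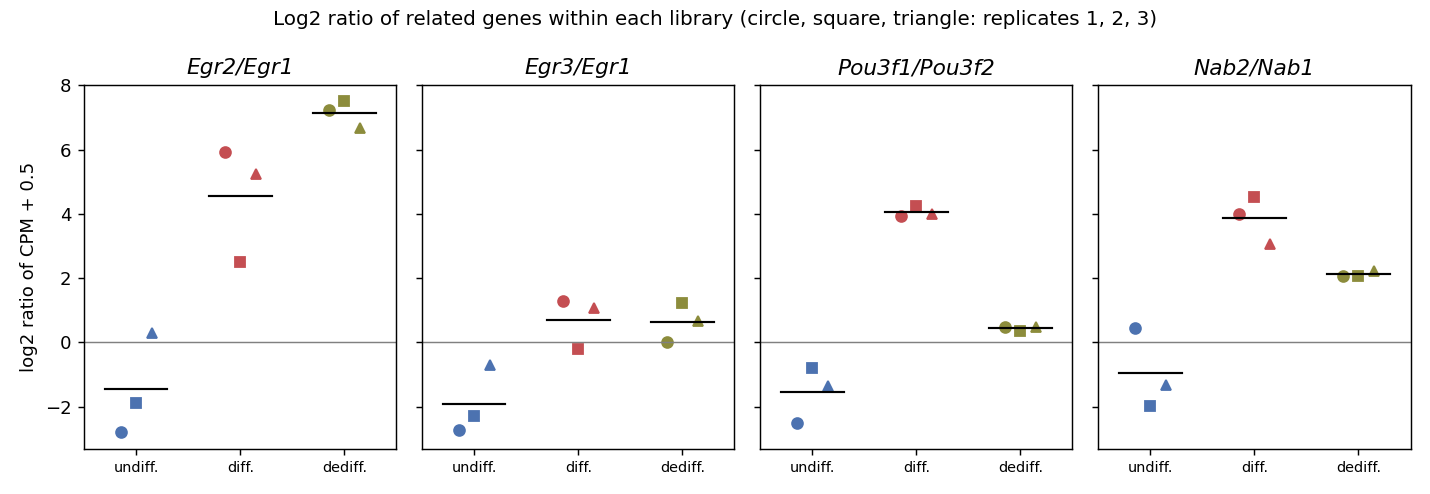
Log2 ratio of 4 pairs of related genes (CPM + 0.5) in each of the 9 libraries, by stage, with a line at the mean of 3. *Pou3f1*/*Pou3f2* and *Nab2*/*Nab1* peak in differentiated cells and *Egr2*/*Egr1* is highest in dedifferentiated cells, with no overlap between stages in any of these 3 pairs.

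The spread of *Egr1* and *Egr3* was wide in undifferentiated and in differentiated cells. It was set beside other immediate early genes, which cells induce without new protein synthesis. Of 24 such genes tested, 19 had their highest differentiated level in replicate 2, 3 in replicate 1 and 2 in replicate 3. In undifferentiated cells 13 were highest in replicate 2, 8 in replicate 1 and 3 in replicate 3. The share of all genes highest in replicate 2 was not counted, so these counts are not particular to the list. *Dusp1*, *Ier3* and *Fosl1* were highest in differentiated replicate 1. In differentiated replicates 1, 2 and 3, the AP-1 gene *Fosb* measured 7.37, 46.2 and 7.65 CPM. *Fos* measured 120.5, 246 and 95.6 CPM and the nuclear receptor gene *Nr4a1* 421, 864 and 377 CPM. *Egr1* and *Egr3*, with 140.2 and 121.8 CPM in differentiated replicate 2, were thus high where most immediate early genes were. *Egr2* differed by 1.24-fold over the same libraries, also with its highest level in replicate 2. Among undifferentiated libraries *Egr2* ranged 10.2-fold and *Egr3* 10.1-fold, both highest in replicate 2. After withdrawal *Egr3* ranged 1.66-fold. Whether the handling of the replicate 2 cultures had a part in their high levels was not tested.

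**Figure D4:**
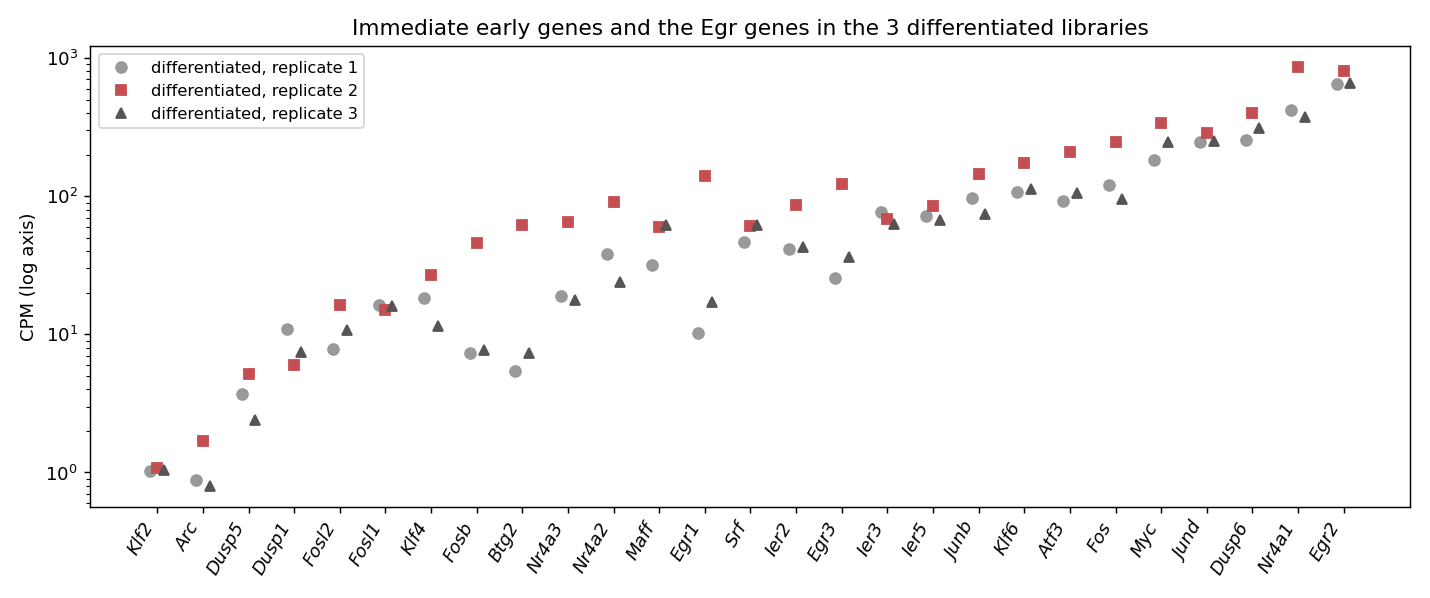
CPM on a log axis of 24 immediate early genes and of *Egr1*, *Egr2* and *Egr3* in the 3 differentiated libraries, ordered by mean level, with a square for replicate 2. The square is the highest symbol for 19 of the 24 genes and for all 3 Egr genes, by a wide margin for *Egr1*, *Egr3* and *Fosb*.

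Under dbcAMP 10 of the 24 immediate early genes were called higher and 9 lower, beside 31.7% and 27.9% of all genes, with a median log2 change of 0.15 beside 0.05. *Nr4a1*, *Nr4a2* and *Myc* rose, by 2.43, 2.40 and 2.29 on the log2 scale. *Fosl2*, *Atf3* and *Klf2* fell, with log2 changes of -4.01, -3.42 and -3.67. On withdrawal 5 were called higher and 8 lower, beside 23.2% of all genes in each direction (median -0.47, beside -0.01 for all genes), and *Fosb*, *Myc* and *Nr4a1* fell, with log2 changes of -5.11, -3.00 and -2.44. *Fosl2*, *Atf3* and *Klf2* rose, by 3.03, 3.47 and 4.10. Between dedifferentiated and undifferentiated cells 1 was called higher, *Nr4a2* (log2 change 1.89), and 4 lower, among them *Dusp1* (-1.40), *Dusp5* (-1.37) and *Fosl2* (-0.97), while 19 were not called. Of all genes 16.1% were higher and 13.3% lower there, and the medians were -0.53 for the list and 0.02 for all genes.

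Genes that *Egr2* is known to act on, or that encode myelin proteins, were taken from a list of 21, of which 20 were tested. Under dbcAMP 17 were called higher and 0 lower, beside 31.7% and 27.9% of all genes, with a median log2 change of 5.78 beside 0.05 for all genes. At an unadjusted p under 0.05, 0 were lower by edgeR, and DESeq2 called 0 lower. *Mal*, a proteolipid of myelin membranes, measured 0.193 ± 0.128 CPM in undifferentiated and 619 ± 163 CPM in differentiated cells (edgeR adjusted p = 1.05e-08). *Cldn19*, a claudin of the myelin sheath, measured 0.265 ± 0.182 and 615 ± 153 CPM (edgeR adjusted p = 1.28e-08), and *Pllp*, plasmolipin, 0.909 ± 0.544 and 334 ± 29.8 CPM (edgeR adjusted p = 1.63e-08).

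On withdrawal 5 of the list were called higher, 4 lower and 11 not called, near the 23.2% of all genes called in each direction, and the median log2 change was 0.01, beside -0.01 for all genes. *Drp2* rose by 1.95 and *Ncmap*, a myelin membrane protein, by 5.09 on the log2 scale. *Cldn19* (log2 change -1.45), *Pmp2*, the fatty acid binding protein of myelin (-1.69), and *Pllp* (-0.69) fell. The call of *Pllp* was lost without differentiated replicate 1 or 2 or dedifferentiated replicate 2 or 3. Against undifferentiated cells 18 of the 20 were called higher and 0 lower, beside 16.1% and 13.3% of all genes (median 5.92), with 0 lower also at an unadjusted p under 0.05 and by DESeq2.

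A further list held genes placed upstream of *Egr2*, and whether each of them acts on *Egr2* in these cells was not tested. Of 22 tested, 7 were called higher, 9 lower and 6 not called under dbcAMP, beside 31.7% and 27.9% of all genes (median -0.14). *Nfatc1*, a calcineurin-regulated factor, rose from 20.7 ± 1.12 to 69.9 ± 8.24 CPM, while its relative *Nfatc4* fell from 39.8 ± 0.986 to 7.09 ± 1.24 CPM. The calcineurin subunit gene *Ppp3ca* rose by 0.74 and the chromatin remodeller gene *Smarca4* by 0.63 on the log2 scale. *Yap1*, the Hippo pathway coactivator, and *Zeb2*, a repressor of inhibitory genes in Schwann cells, fell, with log2 changes of -0.96 and -0.91. On withdrawal 7 were higher and 6 lower, beside 23.2% of all genes each way (median 0.14), with *Nfatc4* (1.68), *Erbb2* (0.72), the neuregulin coreceptor, and *Nfatc3* (0.33) called higher. *Nfatc1* (-1.06), *Wwtr1* (-0.78) and *Smarca4* (-0.71) fell. Against undifferentiated cells 6 were higher and 8 lower, beside 16.1% and 13.3% of all genes (median -0.07), with *Gpr37l1*, a glial receptor gene, higher by 2.35 and *Yap1* lower with a log2 change of -0.77.

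The opposing list held genes that regulate or mark the immature or repair state of Schwann cells, and whether each opposes *Egr2* was not tested. Of 11 tested, 5 were called higher and 4 lower under dbcAMP, beside 31.7% and 27.9% of all genes (median 0.19). *Jun*, *Ngfr* and *Sox2* fell, with log2 changes of -3.36, -2.01 and -1.94, and *Id2*, *Ednrb* and *Id4* rose by 5.14, 2.69 and 2.40. On withdrawal 4 were higher and 4 lower, beside 23.2% of all genes each way (median 0.20). *Jun*, *Ngfr* and *Sox2* rose by 3.10, 1.71 and 1.66, and *Id2*, *Ednrb* and *Id4* fell, with log2 changes of -2.71, -2.16 and -1.86. Between dedifferentiated and undifferentiated cells 4 were called higher, among them *Id2* (2.43), *Hey1* (1.21) and *Id4* (0.54), and 0 lower, beside 16.1% and 13.3% of all genes (median 0.17). At an unadjusted p under 0.05, 1 was lower by edgeR, and DESeq2 called 0 lower. The call of *Id4* was lost without undifferentiated replicate 2 or 3 or dedifferentiated replicate 2 or 3.

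Of 10 tested subunits of NuRD, the complex that Nab proteins recruit, 2 were called higher and 3 lower under dbcAMP, beside 31.7% and 27.9% of all genes (median 0.01). On withdrawal 1 was higher and 4 lower, beside 23.2% each way (median -0.17). Against undifferentiated cells 0 were higher and 2 lower, beside 16.1% and 13.3% (median -0.14). The deacetylase gene *Hdac1* (log2 change -0.46) and the methyl-CpG binding gene *Mbd2* (-0.37) fell under dbcAMP, and *Mbd2* rose by 0.51 on withdrawal. *Gatad2a* and *Gatad2b* rose by 0.26 and 0.28 under dbcAMP and fell on withdrawal, with log2 changes of -0.33 and -0.47. The calls of both rises were lost with DESeq2, which called 0 of the list higher under dbcAMP, and in 5 and 7 of 9 leave-one-out fits. For *Gatad2a* these were the fits without undifferentiated replicate 2 or 3, differentiated replicate 2 or 3 or dedifferentiated replicate 2, and for *Gatad2b* all but those without undifferentiated replicate 1 or differentiated replicate 3. The fall of *Gatad2a* was not called without dedifferentiated replicate 1. *Hdac1* and *Hdac2* were lower after withdrawal than in undifferentiated cells, with a log2 change of -0.32 each, and the call of *Hdac1* was lost without undifferentiated replicate 1 or 2 or dedifferentiated replicate 3. In that comparison 0 were higher also at an unadjusted p under 0.05 and by DESeq2.

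**Figure D5:**
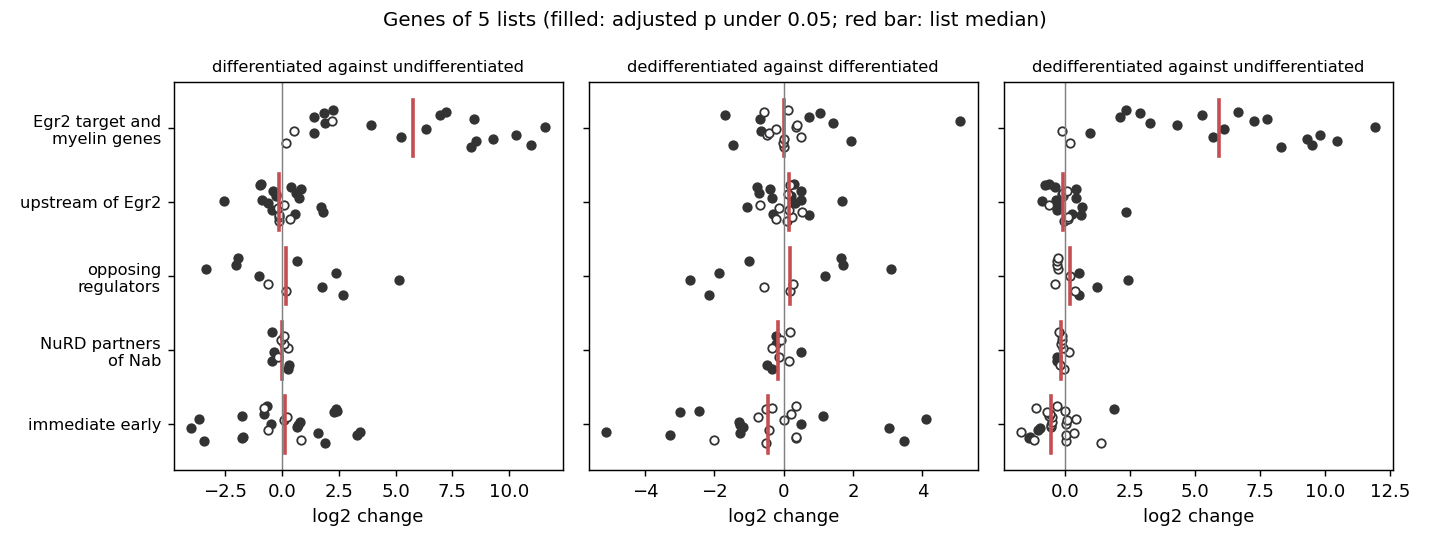
Log2 change (x axis) of each tested gene of 5 lists in the 3 comparisons (panels), filled where the adjusted p was under 0.05, with a red bar at the list median. The Egr2 target and myelin list has medians of 5.78, 0.01 and 5.92 in the panels from left to right, while the medians of the other lists lie between -0.53 and 0.20.

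Among other Egr and POU family genes, *Egr4* was at 0 in all but 1 library, where it had 1 count, *Pou3f4* had counts in 1 library, *Pou3f3* stayed under 1 CPM, and *Pou2f2* had 0 counts in every library. None of these passed the filter. *Pou2f1*, which did, was not called in any comparison. *Pou6f1*, a more distant POU gene, measured 19.6 ± 1.36, 11.1 ± 0.636 and 15.7 ± 1.80 CPM in undifferentiated, differentiated and dedifferentiated cells and was called in each comparison (log2 changes -0.88, 0.50 and -0.37 in the order above), and it was named after its values were seen.

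The genes most like 4 of the members in profile were taken as the 3 with the smallest root mean square difference of log2 CPM over the 9 libraries, after each gene's mean was removed. The log2 CPM included a prior of 2 counts, which sets much of the level of a gene with few counts. For *Egr2* these were *Pik3c2b* (0.48), a class II phosphoinositide kinase gene, *Pou3f1* itself (0.64) and *Pmp2* (0.81). For *Pou3f1* they were *Pik3c2b* (0.44), *Maob* (0.62), which encodes monoamine oxidase B, and *Tbx2* (0.63), a T-box factor. *Pik3c2b* measured 0.0961, 58.0 and 9.98 CPM on average in undifferentiated, differentiated and dedifferentiated cells. In undifferentiated libraries *Pik3c2b* had 0 to 3 and *Maob* 0 to 4 counts. The log2 changes of *Pik3c2b* from undifferentiated to differentiated and dedifferentiated cells were 9.30 and 6.78. Those of *Egr2* were 6.90 and 4.46, and those of *Pou3f1* 7.93 and 4.85. For *Nab2* they included *Ptpru* (0.76), a receptor tyrosine phosphatase gene with 0 to 1 counts in undifferentiated libraries, and *Magi2* (0.79), a scaffold protein gene. *Magi2* measured 1.2, 20.3 and 17.6 CPM on average at the stages in the same order. *Egr1* had no close neighbour: *Fosb* (1.49), *Egr3* (1.59) and *Angptl4* (1.84) came nearest. These distances describe the same 9 libraries, in which stage sets most of the differences.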

How the data were processed

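RNA-seq measured cell mRNA in 9 libraries, prepared from total RNA with a directional kit per the labels' protocols. The authors deposited estimated counts per gene; Salmon is named in the table's name and in the submitters' processing notes, and the genome build and annotation are not given in the sources used here. Values were rounded to whole numbers first, which altered the 1.15% that were fractional. Columns were matched to samples by library code and stage. Their replicate suffixes disagree with the sample titles, which were followed. The vesicle miRNA and lncRNA tables were not used here.

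The test was edgeR's quasi-likelihood F test (version 4.0.16, R 4.3.3). Genes were kept by filterByExpr (minimum count 10), scaled by TMM, and fitted over all 9 libraries without covariates. The SE is the size of the log2 change divided by the square root of F. The labels do not say that the replicates came from separate animals, so p-values measure the spread between these libraries. Related genes were compared by exact permutation of within-library log2 ratios, one-sided in F. Promoters were read from RefSeq tables of GRCr8. Counts were simulated over 10372 genes for differentiated against undifferentiated cells, with 200 genes changed in each of 3 draws. The spread was that typical of a gene's level, without a replicate effect. There 87.7% of 2-fold and 97.3% of 4-fold changes were called, and 4.01% of calls were false. In the data far more genes were called, and these rates need not hold for genes that vary more within a stage, such as *Egr1*.

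Named are the 8 members, the 3 nearest profiles of *Egr2*, *Pou3f1*, *Egr1* and *Nab2*, and up to 3 called genes of smallest p per list, comparison and direction. *Hdac1* and *Hdac2* are in both the upstream and the NuRD list, and *Scd*, *Adgrg6*, *Chd3*, *Chd4*, *Mta3*, *Ccn1*, *Ccn2*, *Yy2* and *Zfp42* were not analysed here. Some genes that this rule names are not reported here. The members and lists were chosen with earlier results of these data known. Alternatives were the replicate number or sequencing project as a covariate, the first project alone, other scalings, no filter, DESeq2 1.42.0, only the stages compared, and leaving out each library.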

Additional observations from a re-analysis of the deposited data

How the results depend on the processing

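Of 408 refits of the 24 member changes, 390 kept their direction and their side of the threshold, 11 lost a call, 2 gained one and 5 changed sign. The sign changes were those of *Egr1* under dbcAMP, at -0.77 without differentiated replicate 2, and of *Yy1*, on withdrawal at 0.03, 0.02 and 0.01 without differentiated replicate 1 or dedifferentiated replicate 1 or 3, and against undifferentiated cells at -0.0012 without dedifferentiated replicate 2. With 1 library left out these log2 changes ranged from -0.77 to 2.85 for *Egr1*, and for *Yy1* from -0.055 to 0.028 and from -0.0012 to 0.10. The cause of these changes was not tested. Replicates 1 and 2 of each stage share a sequencing project and replicate 3 has another. Within the first project, which leaves 2 libraries per stage, 3 members were called between dedifferentiated and undifferentiated cells. There the called genes were 2 of NuRD under dbcAMP, and 5 of the Egr2 target, 6 of the upstream and 2 of the NuRD list on withdrawal. Against undifferentiated cells they were 6 upstream, 1 opposing, 0 NuRD and 3 immediate early genes. Without a filter 3 NuRD genes were called under dbcAMP. With 1 library left out, the NuRD list gave 3 to 6, 3 to 6 and 1 to 3 calls in the comparisons in order. Against undifferentiated cells the opposing list then gave 2 to 4 and the immediate early list 4 to 10, with 10 without undifferentiated replicate 1. The exact p of the *Egr3*/*Egr1* ratio ranged from 0.0321 to 0.0714 with 1 library left out. These NuRD counts were lowest without undifferentiated replicate 2 or 3 or differentiated replicate 2, without differentiated replicate 2 or dedifferentiated replicate 3, and without undifferentiated replicate 1 or 2 or dedifferentiated replicate 3. The opposing count was lowest without undifferentiated replicate 2 or 3 or dedifferentiated replicate 3. Of 1224 refits of named list genes, 46 lost a call and 0 changed sign.

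The titles number the replicates without saying that equal numbers share a culture. After each stage's mean was removed, same-numbered libraries of different stages deviated together by correlations of 0.028 to 0.304. Of 9 libraries, 7 correlated best with their own number. The mean for differently numbered ones was -0.0837, which largely follows from the same-numbered values once stage means are removed. The same-numbered correlations are a hint from the data, not from the design. The numbers were not taken as pairs because 2 of the 9 same-numbered correlations were under 0.1, although all 3 between undifferentiated and differentiated libraries were above it. With the replicate block, *Egr3* was called lower in dedifferentiated than in undifferentiated cells (log2 change -1.93, edgeR adjusted p = 0.0223), and the *Egr3*/*Egr1* ratio gave an exact permutation p of 0.111. The block changed no other call of a member. Depth limits *Egr1* and *Egr3* after withdrawal, where they rest on 1 to 15 counts per library.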
